A study of Mus musculus with 6 samples.

Results

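The p53 target genes described here are 32 genes that textbooks place under the tumor suppressor p53, taken by name and not by any value of the arrays. They were followed in sorted plasmacytoid dendritic cells (pDCs), the blood cells known for making type I interferon, in which a Cre recombinase had been switched on with tamoxifen. Of the 32 genes, 27 had a probe set that the platform table pairs with their symbol alone, out of 19937 genes measured in this way, and each of the 27 had 1 such probe set. *Cdkn1a* shares its probe set with a second symbol, and *Trp53*, *Bax*, *Gdf15* and *Fdxr* were not analysed here. The question put to these genes was whether the cultures with active Cre showed a DNA damage response. Bone marrow came from 3 C57BL/6 mice of the genotype Gfi1f/f; Gfi1bf/f; ERCre, in which both alleles of *Gfi1* and *Gfi1b*, a pair of transcriptional repressors, are floxed. From every mouse there was an untreated culture and a culture given 1 µM tamoxifen (4-hydroxytamoxifen in the study's methods), both grown in 25 ng/ml Flt-3L, a cytokine that drives dendritic cell development, and sorted as B220+CD11c+ cells. The 6 RNA samples were each put on an Affymetrix Mouse Gene 1.0 ST array. All 6 carried the floxed alleles and the Cre, whose fusion to the estrogen receptor keeps it out of the nucleus until tamoxifen binds. No array held tamoxifen-treated cells without Cre or without floxed alleles, so the drug, the nuclear Cre and the loss of *Gfi1* and *Gfi1b* cannot be told apart. The paper describes the deletion in tamoxifen-treated pDC cultures, judged by genotyping PCR, as quite inefficient. A tamoxifen array can therefore hold RNA of cells with and without the deletion.

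Damage to DNA, including the double-strand breaks that a recombinase can leave, is sensed by the kinases ATM, ATR and DNA-PK, which act on p53 directly and through CHEK1 and CHEK2. p53 is then released from MDM2, the ubiquitin ligase that holds it low, and binds DNA as a tetramer. Its targets stop the cell cycle, repair DNA, start apoptosis or feed back on p53 itself, and in blood cells p53 is a strong driver of apoptosis after irradiation. p53 is controlled largely through protein stability, which an array does not measure, so the level of its targets is the usual transcript readout.

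None of the 27 measured genes passed the test. The fit by limma over 21640 probe sets gave 0 genes below an adjusted p of 0.05, with 0 of the 21640 probe sets called, a background of 0%. The smallest adjusted p among the 27 was 0.71, and at an unadjusted p under 0.05 the count was also 0 of 27, against 7.05% of all probe sets (5.14% higher and 1.90% lower). All 27 mean differences were under 0.5 on the log2 scale and none reached 2-fold, against 0.296% of all probe sets. The median log2 difference, tamoxifen minus untreated, was -0.10 (quartiles -0.18 and 0.08, range -0.46 to 0.26). It was 0.03 over all probe sets (quartiles -0.10 and 0.15) and -0.05 over the 10820 brighter ones, with a mean at or above the median probe set, to which 21 of the 27 belonged. In mice 1, 2 and 3 the median was -0.03, -0.16 and -0.05. Higher with tamoxifen were 12 of 27 in mouse 1 (49.8% of all probe sets, 39.8% of the brighter ones), 6 in mouse 2 (52.4% and 34.3%) and 10 in mouse 3 (56.2% and 47.9%). Higher in the tamoxifen culture of all 3 mice were 4 genes (14.8%), *Btg2*, *Sertad1*, *Bbc3* and *Aen*, against 21.3% of all probe sets and 12.0% of the brighter ones. Lower in all 3 mice were 11 genes (40.7%), *Mdm2*, *Mdm4*, *Ccng1*, *Ei24*, *Fas*, *Eda2r*, *Ddb2*, *Xpc*, *Rrm2b*, *Sesn1* and *Phlda3*, against 17.4% of all probe sets and 28.4% of the brighter ones. The other 12 went both ways. With the mouse as a block in the fit, still 0 of 27 were called (0% of all probe sets) and the smallest adjusted p was 0.31. Below an unadjusted p of 0.05 were then *Bbc3*, higher, and *Fas* and *Phlda3*, lower, 3 of 27 against 13.5% of all probe sets (7.46% higher and 5.99% lower).

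**Figure D1:**
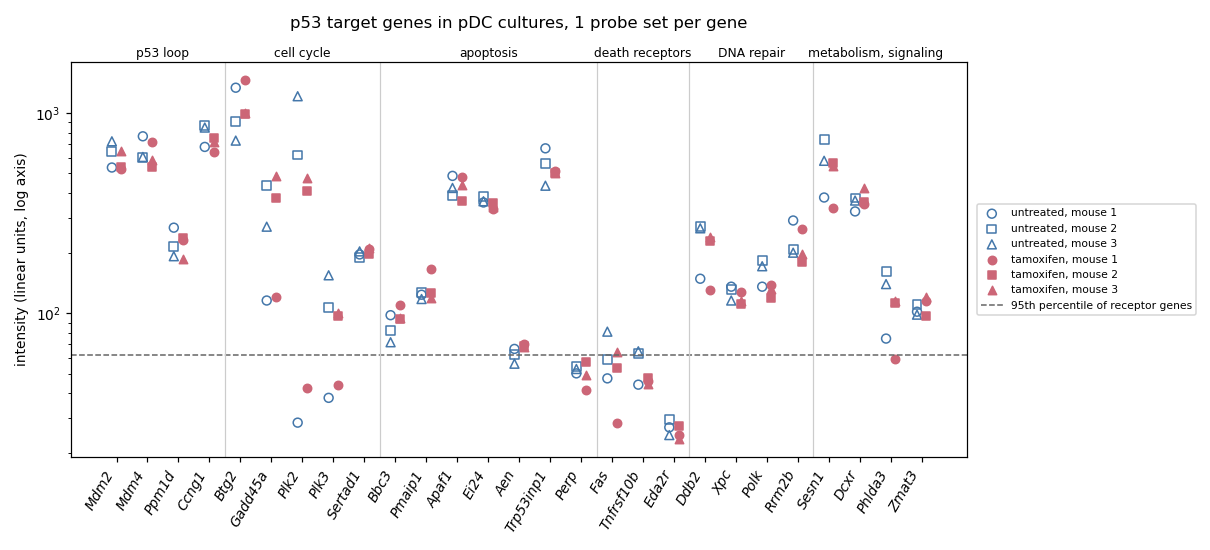
Intensity (linear units, log axis) of the 27 measured p53 target genes on the 6 arrays, in the order of their roles, with open symbols for untreated and filled symbols for tamoxifen cultures, and one shape per mouse. The dashed line, at 61.8, is the 95th percentile of odorant and pheromone receptor probe sets. For *Gadd45a*, *Plk2* and *Plk3* the mice lie farther apart than the treatments do.

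p53 binds a pair of half-sites of 10 bases, each with 3 purines, a C, 2 bases that are A or T, a G and 3 pyrimidines, a pattern that reads the same on both strands. It was searched in RefSeq promoter windows (GRCm38.p6) from 250 bases before to 50 after a gene's start. Of the 27 measured genes, 19 had a window, and 8 of these 19 (42.1%) held at least 1 half-site with no mismatch, against 9.55% of 27025 genes with a window, or 8.36% of 32851 windows of this length. They were *Mdm2*, *Ccng1*, *Ppm1d*, *Sesn1*, *Polk*, *Gadd45a*, *Aen* and *Ei24*. The sequences below are those of the feedback pair *Mdm2* and *Ccng1*, of *Sesn1* and *Ei24*, which like them were lower in all 3 tamoxifen cultures, of *Aen*, which was higher in all 3, and of *Cdkn1a*, the best known p53 target. Each is written 5′ to 3′ on the strand of its gene, with the half-site in capitals.
Mdm2: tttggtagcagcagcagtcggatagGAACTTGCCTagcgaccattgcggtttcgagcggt
Ccng1: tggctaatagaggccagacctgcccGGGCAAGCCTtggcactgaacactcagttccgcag
Sesn1: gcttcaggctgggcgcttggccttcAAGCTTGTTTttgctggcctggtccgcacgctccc
Ei24: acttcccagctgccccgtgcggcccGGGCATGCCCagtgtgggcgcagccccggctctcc
Aen: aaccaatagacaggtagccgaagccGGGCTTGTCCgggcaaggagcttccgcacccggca
Cdkn1a: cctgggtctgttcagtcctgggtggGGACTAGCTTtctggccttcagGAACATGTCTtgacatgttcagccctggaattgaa

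The *Mdm2* stretch is chr10:117710910-117710969 on the minus strand, with the half-site beginning 186 bases before the start. That of *Ccng1* is chr11:40755437-40755496 on the minus strand, 185 bases before the start. *Sesn1* is shown at chr10:41887241-41887300 on the plus strand (173 before), *Ei24* at chr9:36797310-36797369 on the minus strand (10 before), and *Aen* at chr7:78895912-78895971 on the plus strand (11 after). The *Cdkn1a* stretch, chr17:29090881-29090962 on the plus strand, has half-sites that begin 73 and 51 bases before the start. A tandem of 2 half-sites with at most 1 mismatch over its 20 bases was found in 0.107% of all genes with a window, and of the 27 measured genes only in *Ccng1*. The *Cdkn1a* window also held a tandem with 1 mismatch. It is made of the half-site at 51 and the 10 bases that follow it, not of the 2 stretches in capitals. Among genes with a window, a half-site was present in 4 of the 8 that were lower in all 3 mice and in 1 of the 4 that were higher. A match in these letters is a description of the window and not evidence of binding in these cells.

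Arrays of mouse 1 stood apart from those of mice 2 and 3. Summed intensities of 8 pDC markers, among them *Siglech* (2721 to 6917 on every array), were 39538, 20344 and 15676 in the untreated cultures of mice 1, 2 and 3 and 37981, 26999 and 24391 in the tamoxifen cultures. The sums of 12 stromal markers were 819, 9288 and 9983 untreated and 767, 3339 and 3330 with tamoxifen. Those of 9 neutrophil markers were 1389, 8633 and 9852 against 552, 2443 and 4340, and those of 9 macrophage markers 2439, 17819 and 18715 against 2102, 12881 and 15166. Those of 6 B cell markers were 890, 4090 and 3786 against 1114, 2730 and 3039, and those of 7 T and NK cell markers lay between 299 and 413. The sorted cells thus carried pDC transcripts throughout, with transcripts of other cell types that were higher in mice 2 and 3. *Gfi1* was 56.1, 47.8 and 43.3 untreated and 60.5, 67.1 and 61.9 with tamoxifen, and *Gfi1b* was 179, 161 and 155 against 194, 279 and 259. Both were higher with tamoxifen in each mouse, as were 21.3% of all probe sets. Whether their probe sets cover the deleted exons was not examined, so the values check nothing about the deletion. In bulk RNA, fewer cells of a type and less RNA per cell cannot be told apart.

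The feedback genes set the level of p53, and all 4 measured ones had a lower mean with tamoxifen (median log2 difference -0.12), though *Ppm1d* turned to 0.02 after another quantile normalization. *Mdm2*, which encodes the ligase that degrades p53 and is itself a p53 target, had intensities of 535, 645 and 723 in the untreated cultures of mice 1, 2 and 3 and 524, 538 and 650.4 in the tamoxifen cultures. It was lower in each mouse, by 0.03, 0.26 and 0.15 on the log2 scale in size, but the groups overlapped. The mean difference was -0.15 (standard error 0.15, 95% interval -0.51 to 0.21, adjusted p = 0.83 from limma). *Ccng1*, which encodes cyclin G1, a partner of MDM2 in damping p53, was 678, 869 and 847 untreated and 641, 753 and 718 with tamoxifen, a difference of -0.17 (standard error 0.13, interval -0.49 to 0.14, adjusted p = 0.78). Both upper bounds lie under 1, the log2 value of a doubling, but they refer to bulk RNA. In the same fit the upper bounds of *Gadd45a* (1.83), *Plk2* (3.40) and *Plk3* (1.22) lay above 1. A change in only part of the cells was not tested. *Mdm4*, the MDM2 relative that blocks p53's activation domain, was 766, 601 and 604 against 720.2, 539 and 582, lower in each mouse by at most 0.16. *Ppm1d*, whose phosphatase WIP1 shuts off the damage kinases and p53, was 268, 216 and 193 against 232, 238 and 188, so that it was higher in mouse 2 and lower in mice 1 and 3.

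**Figure D2:**
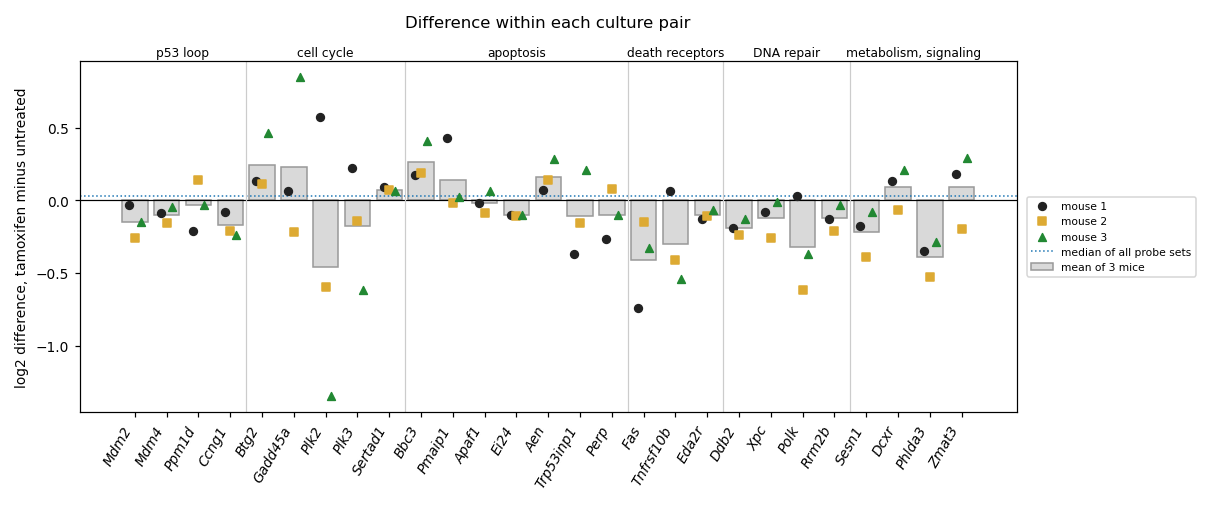
Log2 difference, tamoxifen minus untreated, of each measured p53 target gene within the culture pair of each mouse (points) with the mean over the 3 mice (bars, from 0). The dotted line is the median of all probe sets, 0.03. The mean stays within 0.5 of 0 for all 27 genes, and the widest spread between mice is that of *Plk2*.

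The cell cycle and stress kinase genes varied most from mouse to mouse. *Plk2*, which encodes a polo-like kinase induced by stress, was 28.5, 618 and 1214 in the untreated cultures and 42.2, 407 and 476 in the tamoxifen cultures. Both values of mouse 1 lay under 61.8, the 95th percentile of odorant and pheromone receptor probe sets, where differences are compressed by background. The untreated level of mice 2 and 3 was 21.7 and 42.7 times that of mouse 1. Tamoxifen went with a higher value in mouse 1 (0.57) and lower ones in mice 2 and 3 (-0.60 and -1.35). The last is the only 1 of 81 values, 27 genes in 3 mice, that reached 2-fold. The mean of -0.46 had a standard error of 1.60 and an interval from -4.32 to 3.40. In the fit with the mouse as a block the standard error was 0.32 and the interval -1.24 to 0.32. Without mouse 1 the difference of *Plk2* was -0.98 (adjusted p = 0.2), and with the mouse as a block as well its adjusted p was 0.042, 1 of 27 genes called against 2.37% of all probe sets. In the same 2 mice the summed stromal markers were 0.359 and 0.334 times their untreated level, against 0.936 times in mouse 1. Among the 12 markers, *Dcn* was 1 and 0.939 times its untreated level in mice 2 and 3. In mouse 1, 5 markers were higher and 7 lower, where 49.8% of all probe sets were higher. The part of stromal transcripts in the *Plk2* result was not tested.

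*Plk3*, a related kinase, was 37.9, 107 and 155 untreated and 44.1, 97.4 and 101 with tamoxifen, with the same order of mice. Its values in mouse 1 were also under the receptor percentile. *Gadd45a*, which encodes a growth arrest protein that binds PCNA and stress kinases, was 116, 437 and 271 against 121, 376 and 488. It was within 0.22 of no difference in mice 1 and 2 and higher by 0.85 in mouse 3. Its mean of 0.23 had a standard error of 0.66, or 0.20 with the mouse as a block. In the untreated cultures these 3 genes lay at least 2-fold lower in mouse 1 than in either other mouse. A distance of at least 2-fold from both, in either direction, was found for 5.59% of all probe sets. *Btg2*, an antiproliferative gene, was the brightest of the 27, with 1339, 910.3 and 729 untreated and 1469, 986 and 1006 with tamoxifen. It was higher in each mouse, by 0.13, 0.11 and 0.46 (mean 0.24, standard error 0.26, interval -0.40 to 0.87, adjusted p = 0.85). *Sertad1*, a CDK4-binding regulator, moved least between arrays, from 190.1 to 204 untreated and from 199 to 212 with tamoxifen, and was higher by 0.06 to 0.09 in each mouse.

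The probe set of *Cdkn1a*, which encodes the CDK inhibitor p21, also lists 4930567H12Rik, so its values cannot be given to either gene alone. They were 180.4, 889.6 and 1214 untreated and 259, 518 and 761 with tamoxifen, higher by 0.52 in mouse 1 and lower by 0.78 and 0.67 in mice 2 and 3. The mean was -0.31 (standard error 0.78, adjusted p = 0.94 from limma over 22961 probe sets). With the mouse as a block the standard error was 0.26 and the adjusted p from limma 0.59. As with *Plk2*, the untreated cultures of mice 2 and 3 stood at 4.93 and 6.73 times that of mouse 1, and tamoxifen went with opposite signs in mouse 1 and in the other mice.

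**Figure D3:**
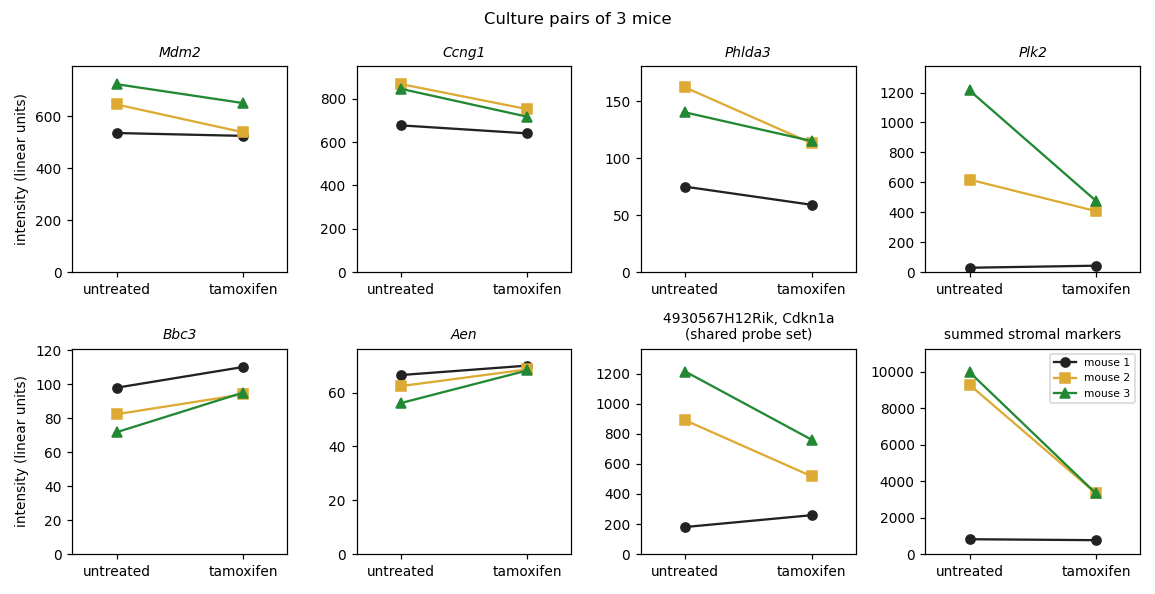
Intensity (linear units, each axis from 0) in the untreated and the tamoxifen culture of each mouse, with a line joining the 2 cultures of a mouse, for 6 p53 target genes, the probe set shared by *Cdkn1a* and 4930567H12Rik, and the sum of 12 stromal markers. *Plk2*, the shared probe set and the stromal sum were low in both cultures of mouse 1 and lower with tamoxifen in mice 2 and 3.

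Among the genes of mitochondrial apoptosis, *Bbc3*, which encodes the BH3-only killer PUMA, was 98.0, 82.4 and 71.8 untreated and 110.2, 94.1 and 95.1 with tamoxifen. It was higher in each mouse, by 0.17, 0.19 and 0.41, though tamoxifen values of mice 2 and 3 lay below the untreated value of mouse 1. The mean of 0.26 was the highest of the 27 (standard error 0.14, interval -0.09 to 0.60, adjusted p = 0.73), and with the mouse as a block its interval was 0.01 to 0.50. *Pmaip1*, which encodes NOXA, the other BH3-only target, was 124, 127 and 118 against 166, 126 and 119.7, so that only mouse 1 was higher by more than 0.02. *Aen*, a nuclease of apoptotic cells, was 66.5, 62.4 and 56.1 against 70.0, 68.6 and 68.2, a mean of 0.16 (standard error 0.10, adjusted p = 0.74). It was the only 1 of 27 genes whose tamoxifen values all lay above the untreated ones, against 10.2% of all probe sets, and its levels were close to 61.8, the 95th percentile of 1204 probe sets for odorant and pheromone receptors, which blood cells are not thought to use.

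*Ei24*, a p53-induced gene of the endoplasmic reticulum, was the only 1 of 27 with all tamoxifen values below the untreated ones, against 4.65% of all probe sets. It was 358, 382 and 363 untreated and 334, 355 and 339 with tamoxifen, lower by 0.10 to 0.11 in each mouse (standard error 0.09, adjusted p = 0.8). *Apaf1*, the scaffold of the apoptosome, had a mean difference of -0.02 (interval -0.37 to 0.33), with levels from 363 to 486 over all arrays. *Trp53inp1*, a stress protein that promotes p53 phosphorylation, ran from 434 to 667 untreated but only from 499.8 to 517 with tamoxifen, lower in mice 1 and 2 and higher in mouse 3. *Perp*, a membrane protein of the p53 apoptosis program, was at 41.7 to 57.4 on all arrays, under the receptor percentile.

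Death receptors carry apoptosis signals from outside the cell. All 3 measured ones, *Fas*, *Tnfrsf10b* (the mouse TRAIL receptor) and *Eda2r*, had a lower mean with tamoxifen (median -0.30), and with *Perp* they were the 4 genes whose geometric mean was below the receptor percentile in both groups, where differences are compressed by background. *Fas* was 47.4, 59.0 and 81.1 untreated and 28.5, 53.3 and 64.4 with tamoxifen. It was lower in each mouse, by 0.74, 0.15 and 0.33 in size, with a mean of -0.41 (standard error 0.34, interval -1.23 to 0.42, adjusted p = 0.8) and, with the mouse as a block, an interval from -0.73 to -0.08. *Tnfrsf10b* was 44.1, 63.1 and 64.7 against 45.9, 47.5 and 44.5, lower in mice 2 and 3 only. *Eda2r* was at 23.5 to 29.5 on all arrays.

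The DNA repair and nucleotide supply genes had lower means in all 4 cases (median -0.16). *Polk*, a polymerase that copies past damaged bases, was 136, 184 and 172 untreated and 139, 120.0 and 133 with tamoxifen. It was level in mouse 1 (0.03) and lower in mice 2 and 3 (-0.62 and -0.37), and its mean of -0.32 (standard error 0.14, interval -0.66 to 0.02) gave the smallest p of the 27, with an adjusted p of 0.71. *Ddb2* and *Xpc* encode sensors of nucleotide excision repair. *Ddb2* was 149, 272 and 266 untreated and 130.3, 230.5 and 242 with tamoxifen, lower in each mouse by 0.13 to 0.24 in size, while the mice themselves differed by more than the treatment did. *Xpc* was 136, 132 and 116 against 128, 111 and 115. *Rrm2b*, the p53-induced subunit of ribonucleotide reductase, was 291, 208 and 201 against 265, 180.2 and 197, with a mean difference of -0.12 (standard error 0.21, adjusted p = 0.9).

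Of the genes of metabolism and signaling, *Phlda3*, which encodes an inhibitor of AKT, was 74.9, 162 and 140.1 untreated and 59.0, 113 and 115 with tamoxifen. The difference was -0.35, -0.53 and -0.29 in the 3 mice, a mean of -0.39 (standard error 0.38, interval -1.30 to 0.52, adjusted p = 0.83). With the mouse as a block the interval narrowed to -0.63 to -0.14 and the adjusted p was 0.31. *Sesn1*, a sestrin that restrains mTORC1, was 379, 735 and 578 against 335, 562 and 547, lower in each mouse by 0.08 to 0.39 in size. *Dcxr*, a xylulose reductase, and *Zmat3*, an RNA-binding p53 target, both had a mean difference of 0.09 and went both ways, *Dcxr* from 323 to 377 untreated and 353 to 424 with tamoxifen, *Zmat3* from 98.6 to 111 and from 96.6 to 120.4.

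Differences between mice were larger than those between treatments for most of these genes, as for most probe sets. The range of the untreated cultures over mice exceeded the size of the mean difference in 25 of 27 (92.6%). The shares were 81.2% of all probe sets and 85.2% of the brighter ones, and a range is set here against a mean. Without mouse 1, 15 of 27 genes were lower in both remaining mice, against 28.9% of all probe sets and 42.9% of the brighter ones, and the median of the 27 stayed at -0.10. The pDC marker sums were 0.961, 1.33 and 1.56 times their untreated value in mice 1, 2 and 3. The neutrophil sums were 0.398, 0.283 and 0.44 times theirs, lower in all 3 mice. Of the 9 neutrophil markers, 6 were lower in all 3 mice, while *Camp*, *Elane* and *Mpo* went both ways. The means of *Elane* and *Mpo* were higher with tamoxifen. The part of neutrophil transcripts in the values of the p53 targets was not tested.

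The wider pathway was read from 3 more lists. Of 24 genes that sense or signal DNA damage, 23 were measured, 0 passed the adjusted test with or without the block, and the median difference was -0.07. In all 3 mice 4 were higher and 4 lower. The groups did not overlap for 3 of the 23, with tamoxifen higher for *Brca1* and *H2afx* (10.2% of all probe sets) and lower for *Rad50* (4.65%). *Rad50*, of the MRN complex that binds broken ends, was 269.8, 281 and 245 untreated and 225, 206 and 205 with tamoxifen (mean -0.32, standard error 0.10, adjusted p = 0.69). *Brca1*, of homologous recombination, was 38.8, 48.5 and 51.2 against 65.1, 53.4 and 56.6 (mean 0.34, standard error 0.14, adjusted p = 0.7), with a geometric mean under the receptor percentile in both groups. *Trp53rkb*, which RefSeq also lists under the older symbol *Trp53rk* and which encodes a kinase named for its action on p53, had a mean of 0.24 (adjusted p = 0.71). The apex kinases *Atm* and *Atr* had means of -0.04 and -0.23, and *Chek2* of -0.02, with adjusted p from 0.74 to 0.98. *Chek1*, the checkpoint kinase of replicating cells, was 31.0, 45.7 and 41.4 against 57.3, 38.7 and 30.3, higher by 0.89 in mouse 1 and lower by 0.24 and 0.45 in mice 2 and 3, at levels that were likewise under the receptor percentile.

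Of 25 further p53 targets all 25 were measured and 0 were called, with a median of 0.02, 6 higher and 2 lower in all 3 mice. The 3 with the smallest p were *Pidd1*, the scaffold of the PIDDosome, with 106, 86.6 and 75.3 untreated and 115, 106 and 102 with tamoxifen (mean 0.28, adjusted p = 0.72), *Gtse1*, a mitotic regulator of p53 (mean 0.21, adjusted p = 0.73), and *Trp73*, a p53 relative (mean 0.18, adjusted p = 0.73), whose level was under the receptor percentile in both groups. *Sesn2*, the stress-induced sestrin, had a mean of -0.06 and was lower in mouse 1 only.

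The third list holds cell cycle genes that p53 represses through p21 and the DREAM complex, and these separated the mice. Of 20 genes 19 were measured (*Ccnb1* was not analysed here) and 0 were called. The median difference was 1.30 for mouse 1, but -0.19 and -0.16 for the other two. In mouse 1, 18 of 19 were higher with tamoxifen and 15 at least 2-fold higher, against 0.518% of all probe sets, while none was 2-fold higher in mouse 2 or 3 (0.0924% and 0.351% of all probe sets). *Mki67*, the proliferation marker, was 106, 193 and 167 untreated and 334, 179 and 128 with tamoxifen. *Ccna2*, the S phase cyclin, was 104, 217 and 167 against 339, 190.4 and 172. *Cdk1*, the mitotic kinase, was 88.2, 191 and 184 against 198, 138 and 143, and *Aurkb*, the kinase of chromosome segregation, was 117, 158 and 152 against 247, 153 and 154. The tamoxifen array of mouse 1 was the highest of the 6 for 17 of the 19 genes and the untreated array of mouse 1 the lowest for 13. *Mybl2*, a DREAM target with the smallest p of the list, was higher by 0.35 in mice 1 and 3 and level in mouse 2 (mean 0.23, adjusted p = 0.73). Without mouse 1 the list's median was -0.16.

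**Figure D4:**
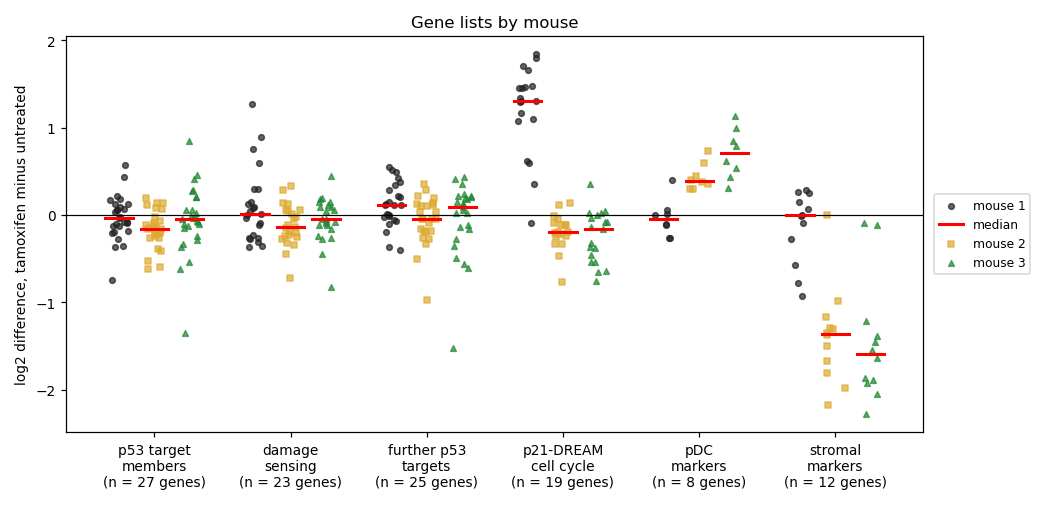
Log2 difference, tamoxifen minus untreated, of every gene of 6 lists within each mouse, 1 point per gene, with the median of the list in red. The medians of the p53 targets were -0.03, -0.16 and -0.05 in mice 1, 2 and 3, with 21 of 27 genes below 0 in mouse 2, the cell cycle list has a median of 1.30 in mouse 1 only, and the stromal markers are lower in mice 2 and 3.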

How the data were processed

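Sorted pDCs of 3 mice, each with an untreated and a tamoxifen culture, gave 6 arrays from 200 ng of RNA each. The deposited table gives an intensity on the linear scale (3.07 to 19106) for each of 34760 probe sets, normalized by the authors, with array medians from 69.0 to 72.9. How background was corrected and probe sets were summarised is not given in the sources analysed here. The platform table pairs 21640 probe sets with 1 symbol, 1321 with several and 11799 with none. Log2 intensities of the 21640 were compared with lmFit and eBayes of limma 3.58.1 (R 4.3.3), in two-sided tests, adjusted after Benjamini and Hochberg, at a threshold of 0.05 and without a filter. Intervals are 95% and come from the same fit, as do standard errors. Arrays give no read depth, and 3 per group limit the precision.

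The labels pair the arrays by mouse. After removal of the group means, same-mouse arrays correlated with r of 0.81, 0.51 and 0.67 over probe sets, so a fit blocked on the mouse was run as an alternative. Others were another quantile normalization, median centring, a floor, a filter on dim probe sets, array weights, a trended robust fit, other choices of probe set, and each array or mouse left out. Per gene the probe set with the highest mean was kept. All measured members are named, as are the 3 genes of each pathway list with the smallest p and 9 genes chosen by name, of which *Ccnb1* was not analysed here. The members and all lists were chosen with earlier results of these data known. The steps were tested on simulated arrays with the real spread within groups. Each array was drawn independently, so arrays of a mouse shared nothing, unlike the real ones. The main limma fit called 20.6% of changes of 1.5-fold and 58.8% of changes of 2-fold. The fit blocked on the mouse called 0% and 6.4% of them. With no shared mouse effect to remove, these 2 rates cannot say what the blocked fit would find or miss in the real arrays. A count of 0 calls in the main fit can miss changes of this size. Promoters are RefSeq sequences of GRCm38.p6.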

Additional observations from a re-analysis of the deposited data

How the results depend on the processing

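With 3 arrays per group, no alternative moved the median of the p53 targets across 0 (-0.16 to -0.06), and 14 of the 27 genes kept their sign in every alternative run for them. These were all 24, 6 of them added after seeing the data, for 10 genes, and 22 for *Aen*, *Eda2r*, *Fas* and *Tnfrsf10b*, which the filter on dim probe sets removed. The paired fit, with mouse as the replicate block, called 0 of 27. Over all probe sets the count of calls was 0, but 2 with a floor, and 0 to 513 when arrays or mice were left out: 108 without mouse 1, and 513 without mouse 1 with the block kept. The same omissions gave 0 to 1 calls among the p53 targets, and 0 to 1 in each of the damage sensing, further target and cell cycle lists. Under another quantile normalization and median centring, 6 and 3 of the 27 were higher in all mice and 11 and 13 lower. Genes higher in every mouse numbered 4 to 8 with a mouse left out (8 without mouse 2).

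Signs turned for these log2 differences, whose cause was not tested. Another quantile normalization gave 0.02 for *Ppm1d*, 0.04 for *Apaf1*, 0.01 for *Atm* and -0.02 for *Chek1*. Array weights gave 0.06 for *Ppm1d*, -0.11 for *Gadd45a*, -0.03 for *Zmat3*, 0.04 for *Atm*, -0.17 for *Chek1*, 0.00 for *Chek2*, 0.09 for *Sesn2* and -0.29 for *Cdk1*. Leaving out arrays or mice gave ranges of -0.22 to 0.01 for *Mdm4*, -0.14 to 0.10 for *Ppm1d*, -0.29 to 0.84 for *Gadd45a*, -2.10 to 0.67 for *Plk2*, -0.77 to 0.25 for *Plk3*, -0.01 to 0.23 for *Pmaip1*, -0.11 to 0.09 for *Apaf1*, -0.27 to 0.04 for *Trp53inp1*, -0.21 to 0.02 for *Perp*, -0.47 to 0.10 for *Ddb2*, -0.29 to 0.05 for *Rrm2b*, -0.48 to 0.03 for *Sesn1*, -0.01 to 0.23 for *Zmat3*, -0.01 to 0.55 for *Aurkb*, -0.08 to 0.87 for *Ccna2*, -0.25 to 0.24 for *Atm*, -0.34 to 0.32 for *Chek1*, -0.10 to 0.08 for *Chek2*, -0.18 to 0.12 for *Sesn2*, -0.42 to 0.40 for *Cdk1* and -0.24 to 0.78 for *Mki67*.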

Other observations

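Some genes of the pathway lists, picked after their values were seen, differed between mice like *Plk2*. *Ephx1*, the microsomal epoxide hydrolase, had intensities of 49.4, 399.9 and 339.8 in the untreated cultures of mice 1, 2 and 3 and 49.6, 204 and 222 in the tamoxifen cultures. *Ninj1*, the membrane rupture protein of dying cells, was 193, 795 and 796 against 149, 561 and 724. *Xrcc5*, which encodes the Ku80 subunit of DNA-PK and end joining, was 33.3, 82.7 and 85.5 against 40.8, 50.1 and 48.1, higher by 0.30 in mouse 1 and lower by 0.72 and 0.83 in mice 2 and 3, with a geometric mean in both groups below the 95th percentile of odorant and pheromone receptor probe sets, 61.8. Without mouse 1 and with the mouse as a block, an adjusted p of 0.036 was given for *Ephx1* and 0.027 for *Xrcc5* by limma. *Bub1* of the cell cycle list had an adjusted p of 0.027 in that limma fit, which called 2.37% of all probe sets. None of these genes passed with all 3 mice. *H2afx* (*H2ax* in the platform table), which encodes the histone H2AX that is phosphorylated at breaks, was 256, 304 and 226 against 617, 318 and 309.9, with a log2 difference of 1.27 in mouse 1, where the cell cycle list was also high, and 0.06 and 0.45 in mice 2 and 3.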
